A study of Mus musculus with 12 samples.

Results

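The 37 genes described here are the enzymes of glycolysis, the transporters and regulators that move glucose carbon into and out of the pathway, and genes known to respond to low oxygen. They were taken by gene symbol from the 34327 genes measured. Every one of the 37 symbols was found, and for Aldoa, the only symbol on 2 rows, the row with the higher mean was used. The genes fell into 16 glycolytic enzymes from hexokinase to lactate dehydrogenase, 5 genes of transport and flux, 2 genes of glycogen, the oxygen-responsive factor Hif1a itself, and 13 targets of hypoxia-inducible factors (HIF) outside glucose metabolism. RNA was measured in bone marrow-derived macrophages (BMDMs) of wild-type C57BL/6 mice (C57BL/6J in the growth protocol), cultured untreated or with IL-4 at 20 ng/ml, with a labelled time of 24 hours. IL-4 is the cytokine that drives the tissue repair program of macrophages. Cells grew on tissue culture (TC) plates, in low-collagen gels of 2 mg/ml or in high-collagen gels of 7 mg/ml, which gave 6 conditions of 2 libraries each. All BMDMs had been matured in medium conditioned by L929 cells, and the age of the mice was not given in the sources used here. Gels were made of rat tail collagen I, held the cells inside them and floated free in the well, whereas plates carried the cells on a hard surface.

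Glycolysis converts glucose to pyruvate and, through lactate dehydrogenase, to lactate, and it makes ATP without oxygen. When oxygen is plentiful, the prolyl hydroxylases encoded by Egln1 and Egln3 mark the HIF alpha proteins for destruction. When oxygen falls, or when the hydroxylases are inhibited, HIF proteins accumulate and bind DNA at sites with a core of RCGTG, where R is A or G. Most glycolytic enzymes can be induced in this way, but they are also driven by other factors and are abundant in every cell. Genes such as Bnip3, Ankrd37 and Egln3 encode no glycolytic enzyme, so they were read separately from the enzymes. HIF activity itself is set at the protein level and was not measured.

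To show how the letters of the HIF core lie in members of both kinds, 4 promoters were printed, those of Bnip3 and Ankrd37, whose RNA differed most between gels and plates without IL-4, and those of the enzyme genes Pgk1 and Ldha. They are RefSeq sequences on GRCm38.p6, run 5′ to 3′ on the strand of the gene from 250 bases before to 50 after its start, and the capitals mark ACGTG or GCGTG on either strand. Bnip3 lies at chr7:138909457-138909756 on the minus strand, Ankrd37 at chr8:45999801-46000100 on the minus strand, Pgk1 at chrX:106186850-106187149 on the plus strand and Ldha at chr7:46845554-46845853 on the plus strand.
Bnip3: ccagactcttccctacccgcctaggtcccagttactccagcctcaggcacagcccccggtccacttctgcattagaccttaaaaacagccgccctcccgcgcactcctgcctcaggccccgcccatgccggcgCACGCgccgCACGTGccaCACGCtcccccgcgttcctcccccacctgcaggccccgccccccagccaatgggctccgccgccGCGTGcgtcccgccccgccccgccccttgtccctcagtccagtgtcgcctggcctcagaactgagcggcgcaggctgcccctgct
Ankrd37: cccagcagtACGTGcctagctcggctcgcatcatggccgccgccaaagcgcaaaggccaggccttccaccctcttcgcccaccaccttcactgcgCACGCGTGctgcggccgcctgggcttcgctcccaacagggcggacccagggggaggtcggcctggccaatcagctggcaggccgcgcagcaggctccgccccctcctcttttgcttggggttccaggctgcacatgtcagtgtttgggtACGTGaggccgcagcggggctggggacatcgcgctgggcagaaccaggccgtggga
Pgk1: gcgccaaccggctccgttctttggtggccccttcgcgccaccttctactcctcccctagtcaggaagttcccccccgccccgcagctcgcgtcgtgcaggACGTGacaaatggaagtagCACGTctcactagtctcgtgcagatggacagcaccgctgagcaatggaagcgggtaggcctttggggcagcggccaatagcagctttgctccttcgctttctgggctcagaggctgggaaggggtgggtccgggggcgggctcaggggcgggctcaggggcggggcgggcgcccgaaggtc
Ldha: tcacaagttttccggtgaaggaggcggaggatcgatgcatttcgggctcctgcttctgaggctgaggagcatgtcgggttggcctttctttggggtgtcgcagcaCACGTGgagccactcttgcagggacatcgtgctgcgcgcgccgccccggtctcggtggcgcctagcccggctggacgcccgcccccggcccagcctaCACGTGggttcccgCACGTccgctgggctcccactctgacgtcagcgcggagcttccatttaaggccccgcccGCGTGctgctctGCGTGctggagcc

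A promoter was listed for 35 of the 37 genes, and those of Bnip3l and Ndrg1 were not analysed here. For 27025 genes 32851 promoters were listed, and only the first listed of each gene was read. Several were listed for Hk1, Pfkm, Aldoa, Aldoc, Eno1, Pkm and Ldha among the enzymes and for Kdm3a and Mxi1 among the HIF targets. ACGTG or GCGTG on either strand was found in 10 of 11 HIF targets outside glucose metabolism (90.91%) and 11 of 16 glycolytic enzymes (68.75%). The share was 43.8% over all 27025 genes and 63.8% over the 8825 genes tested here that had a promoter. With the overlapping forward and reverse copies of CACGTG counted once, 8 of 11 and 9 of 16 held the letters at 2 or more places, beside 32.06% of the genes tested. The median GC content was 69% in the HIF targets, 57.33% in the enzymes and 60.67% in the genes tested. These matches describe letters and say nothing of binding.

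The libraries were close in breadth, with 11543 to 11910 genes at 1 TPM or more. TPM, the measure of transcript abundance used, are corrected for transcript length and share 1 total in every library, and the number of reads behind a value is unknown. The labels do not say whether the 2 libraries of a condition came from separate mice or cultures, so p-values measure only the spread between these libraries. All 7 macrophage markers were above 1 TPM, with summed levels of 17459 to 27861 TPM on plates, 30615 to 45781 in low-collagen gels and 35574 to 53481 in high-collagen gels. Most of each sum was Lyz2, at 24117 and 23418 TPM on untreated plates. Without IL-4, Cd68 was lower in both gels than on plates and Itgam in low-collagen gels only, while the other markers were higher. None of 6 fibroblast markers reached 1 TPM (summed level at most 0.833 TPM), nor did any of 4 erythroid, 4 lymphoid or 2 eosinophil markers (at most 0.504, 1.34 and 0.511 TPM). Of 5 neutrophil markers, 2 reached 1 TPM (S100a8 and S100a9) and Ly6g was listed at 0 in every library. Their summed level was 4.08 to 9.16 TPM on plates, 14.3 to 30.2 in low-collagen gels and 12.8 to 18.2 in high-collagen gels. The mitochondrial share of TPM was 5.22% to 5.86% on plates and 3.30% to 4.16% in gels. Both moved with the difference between gel and plate, and their part in the results was not tested.

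**Figure D1:**
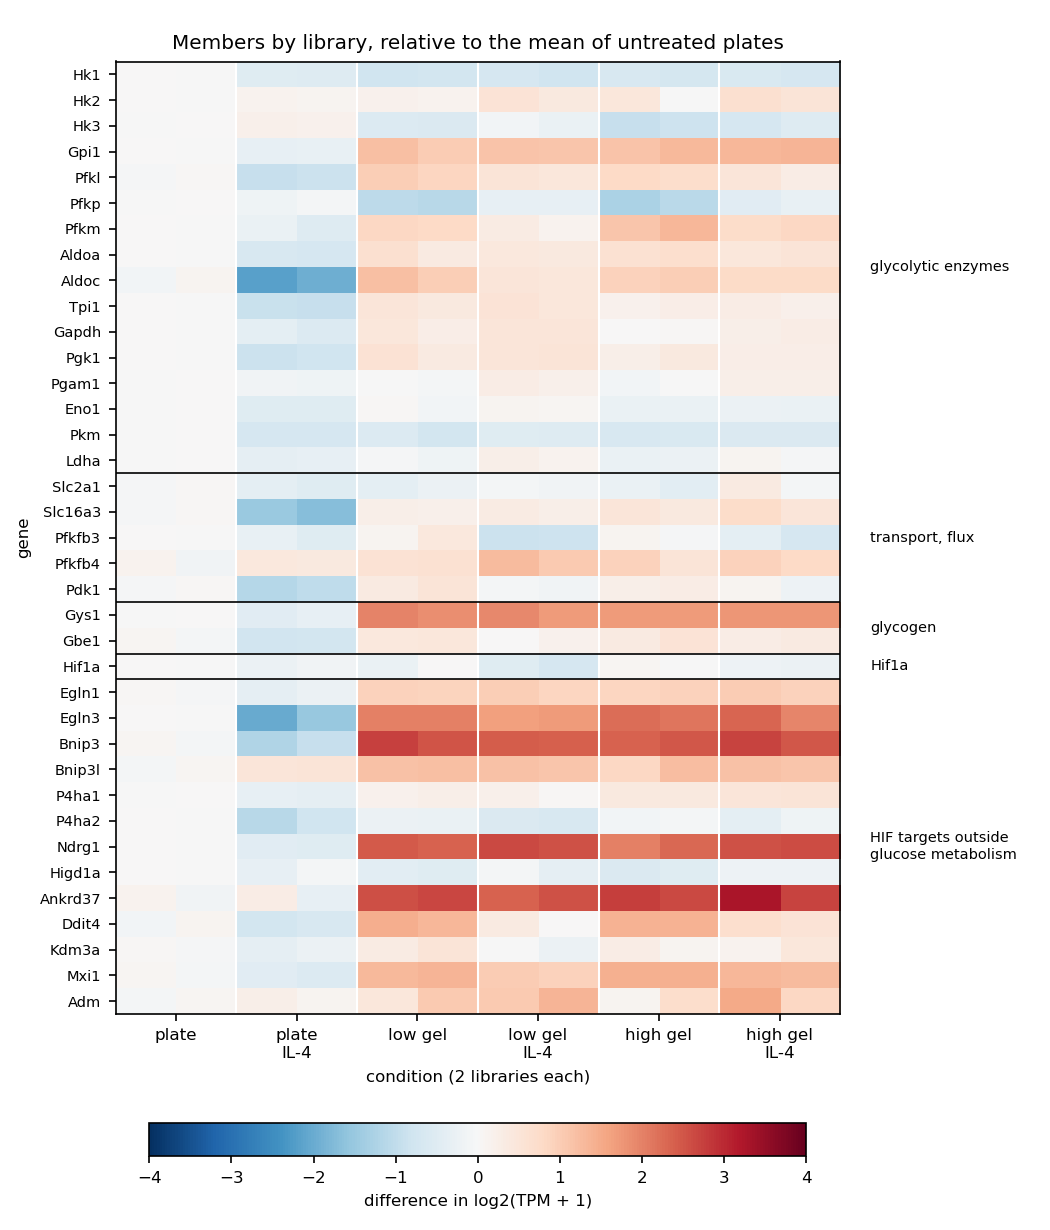
Heat map of the difference in log2(TPM + 1) of each of the 37 genes (rows, grouped by role) from the mean of untreated plates, in each of the 12 libraries (columns, 2 for each condition). Bnip3, Egln3, Ndrg1, Ankrd37 and Gys1 are red in all 8 gel libraries, and most enzymes are blue in the 2 libraries from plates with IL-4.

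Macrophages in gels were compared with macrophages on plates of the same treatment. Without IL-4, the members with the largest differences in either gel were Bnip3, Ankrd37, Ndrg1 and Egln3, HIF targets outside glucose metabolism whose levels were 4.29 to 7.03 times those on plates. Gys1, the glycogen synthase gene, followed (log2 difference 1.91 and 1.71). Glycolytic enzymes moved less and in both directions. Calls were made by limma on log2(TPM + 1) where the adjusted p was under 0.2, and 36 of the 37 genes could be tested against plates (Adm was too low). Differences on this scale understate the change of low genes. Without IL-4, 24 members were higher and 8 lower in low-collagen gels, beside 72.8% of all genes called (28.5% higher and 44.3% lower). In high-collagen gels, 22 were higher and 8 lower, beside 73.5% called (28% higher and 45.5% lower). With IL-4, 29 were higher and 5 lower in low-collagen gels (75.1% of all genes called, 22.8% higher and 52.2% lower), and 30 were higher and 3 lower in high-collagen gels (74.6% called, 26.5% higher and 48.1% lower). With so many genes called, the number of members called says little, and their direction and size carry the description. The median over all genes was -0.13, -0.16, -0.28 and -0.20 on the log2 scale in these comparisons. After rescaling each library by the median ratio, which brought these medians close to 0, the splits were 28 higher and 5 lower, 27 and 5, 32 and 0, and 33 and 1 of 37, beside 37.1% and 35.9%, 37.1% and 36.6%, 36.4% and 35.7%, and 37.7% and 36.3% of all genes. Gels and plates also differed in vessel, in the embedding of the cells and in the recovery of RNA. By the authors' culture methods, more cells were also seeded in a gel than in a plate well. These differences cannot be told apart from that of the gel. In bulk RNA, fewer cells of a kind and less RNA in each cell cannot be told apart either.

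**Figure D2:**
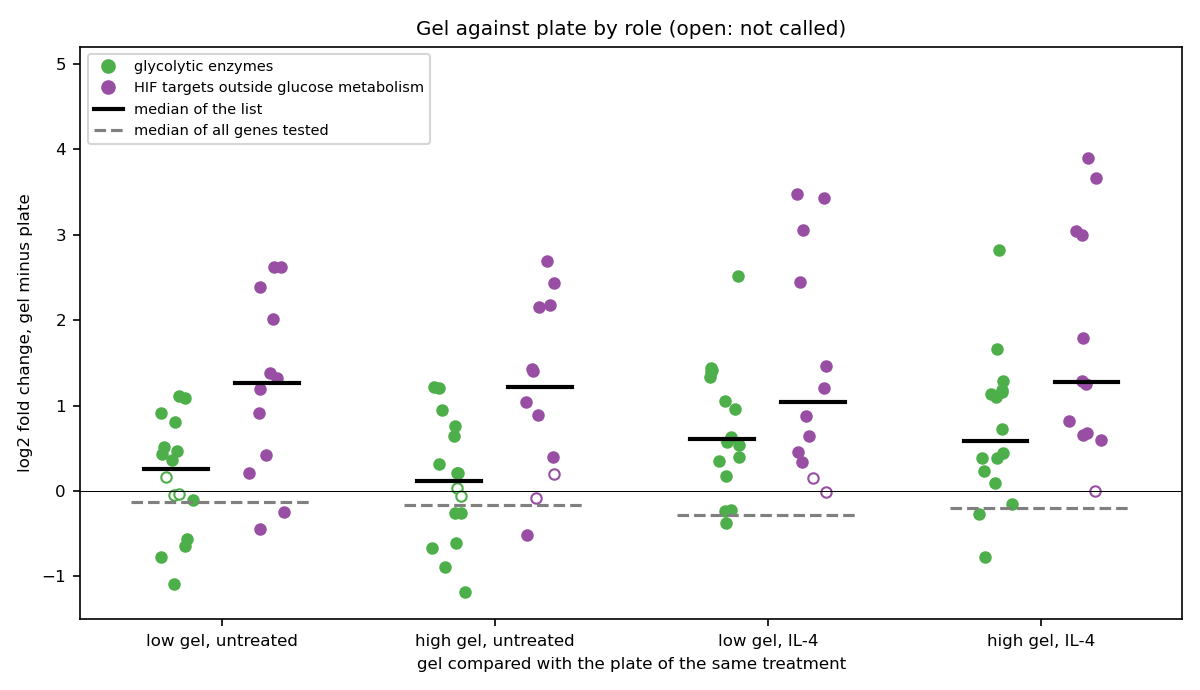
Difference of each gene between gel and plate of the same treatment (y axis, log2 fold change on log2(TPM + 1)) for the glycolytic enzymes (green) and the HIF targets outside glucose metabolism (purple), with black lines at the list medians and dashed lines at the median of all genes tested. The medians of the HIF targets lie at 1.26, 1.22, 1.04 and 1.27 from left to right, and those of the enzymes at 0.26, 0.12, 0.60 and 0.58.

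Of the 12 HIF targets outside glucose metabolism that could be tested, 10 rose and 2 fell in low-collagen gels without IL-4 (median 1.26), and 9 rose and 1 fell in high-collagen gels (median 1.22). With IL-4, 10 rose and none fell (median 1.04) and 11 rose and none fell (median 1.27). The 16 glycolytic enzymes split into 8 higher and 5 lower (median 0.26) and 8 higher and 6 lower (median 0.12) without IL-4, and into 13 higher and 3 lower with IL-4 in both gels (medians 0.60 and 0.58). After rescaling, the enzymes split into 11 higher and 4 lower, 10 and 4, 13 and 0, and 13 and 1, with medians of 0.43, 0.31, 0.91 and 0.83. The HIF targets then had medians of 1.37, 1.23, 1.19 and 1.50, over 13 genes, because Adm could be tested only after rescaling. The comparisons without IL-4 share the plate libraries, as do those with IL-4.

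The distance between both groups of genes was also taken inside each library, where any scaling of the whole library nearly cancels. The mean log2(TPM + 1) of the 16 enzymes exceeded that of the 13 HIF targets by 3.72 and 3.76 in the untreated plate libraries and by 3.69 and 3.63 in those with IL-4. In low-collagen gels the distance was 2.81 and 2.66 without IL-4 and 2.97 and 2.98 with it, and in high-collagen gels 2.74 and 2.69, then 2.65 and 2.76. All 4 plate libraries lay above all 8 gel libraries. The enzymes together took 1.29% ± 0.00341 (SD, n = 2) of all TPM on untreated plates and 1.48% ± 0.136 in untreated low-collagen gels. The summed level of the HIF targets was 533 and 532 TPM on untreated plates (0.0533% of all TPM) and 1244 and 1195 TPM in untreated low-collagen gels (0.122%). With IL-4, the enzymes took 0.898% ± 0.012 on plates, 1.57% ± 0.0248 in low-collagen gels and 1.45% ± 0.00307 in high-collagen gels. The HIF targets took 0.0458%, 0.112% and 0.127% there.

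Bnip3 (GRCm38, chromosome 7, 138890836 to 138909519, minus strand, protein coding) encodes a protein of the outer mitochondrial membrane that recruits the autophagy machinery. Its level was 63.1 and 56.8 TPM on untreated plates, 406 and 347 TPM in untreated low-collagen gels and 313 and 342 TPM in untreated high-collagen gels. With IL-4 it was 25.1 and 31.1 TPM on plates, 328 and 318 TPM in low-collagen gels and 395 and 340 TPM in high-collagen gels. Every gel library lay far above every plate library, and no gel group overlapped a plate group. The log2 difference from plates was 2.63 (SE 0.117) and 2.43 without IL-4 and 3.48 and 3.66 with it (limma adjusted p = 1.25e-07, 1.63e-07, 4.47e-08 and 2.51e-08). Bnip3l, its close relative, stood at 102 and 115 TPM on untreated plates and 246 and 252 TPM in untreated low-collagen gels, a smaller log2 difference of 1.20 (SE 0.108). Of the 31-base words of the transcripts, 20.3% of those of Bnip3 and 23.7% of those of Bnip3l also occurred in other genes, chiefly in copies with means of at most 0.162 TPM.

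Egln3 (chromosome 12, 54178981 to 54203860, minus strand, protein coding) and Egln1 encode the oxygen-dependent prolyl hydroxylases that act on HIF alpha proteins and are themselves HIF targets. Egln3 was at 11.9 and 11.8 TPM on untreated plates and at 2.20 and 3.48 TPM on plates with IL-4. In gels it was at 51.3 and 50.6 TPM (low collagen) and 58.9 and 55.9 TPM (high collagen) without IL-4, and at 39.1 and 40.6 TPM and 63.2 and 48.7 TPM with it. Gels and plates did not overlap, and plates with IL-4 were the lowest of the 6 conditions. The log2 difference was 2.01 (SE 0.156) and 2.18 without IL-4 and 3.43 and 3.90 with it (limma adjusted p at most 3.3e-06), which placed Egln3 at rank 21 and rank 12 from the top of 11865 genes with IL-4. Egln1 rose less, from 31.7 and 29.4 TPM to 59.4 and 57.6 TPM in untreated low-collagen gels (log2 difference 0.91, SE 0.0817) and by 0.89, 1.21 and 1.26 in the other comparisons.

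Ankrd37 (chromosome 8, 45996902 to 46005707, minus strand, protein coding), which encodes a small ankyrin repeat protein, was at 10.3 and 8.40 TPM on untreated plates, 60.5 and 64.3 TPM in untreated low-collagen gels and 68.5 and 63.2 TPM in untreated high-collagen gels. With IL-4 it was at 11.7 and 7.27, 51.6 and 58.8, and 99.1 and 65.5 TPM. The groups of gels and plates stood well apart under both treatments. The log2 difference was 2.62 (SE 0.22), 2.69, 2.45 and 2.99 (limma adjusted p at most 9.64e-06). Ndrg1 (chromosome 15, 66929318 to 66969640, minus strand, protein coding), a stress-responsive gene linked to growth arrest, was at 20.0 and 19.6 TPM on untreated plates, 112 and 105 TPM in untreated low-collagen gels and 82.8 and 100 TPM in untreated high-collagen gels. With IL-4, Ndrg1 was at 14.2 and 13.9 TPM on plates and at 119 to 127 TPM in the 4 gel libraries. Its log2 difference was 2.39 (SE 0.0901) and 2.15 without IL-4 and 3.06 and 3.04 with it, again with no overlap.

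**Figure D3:**
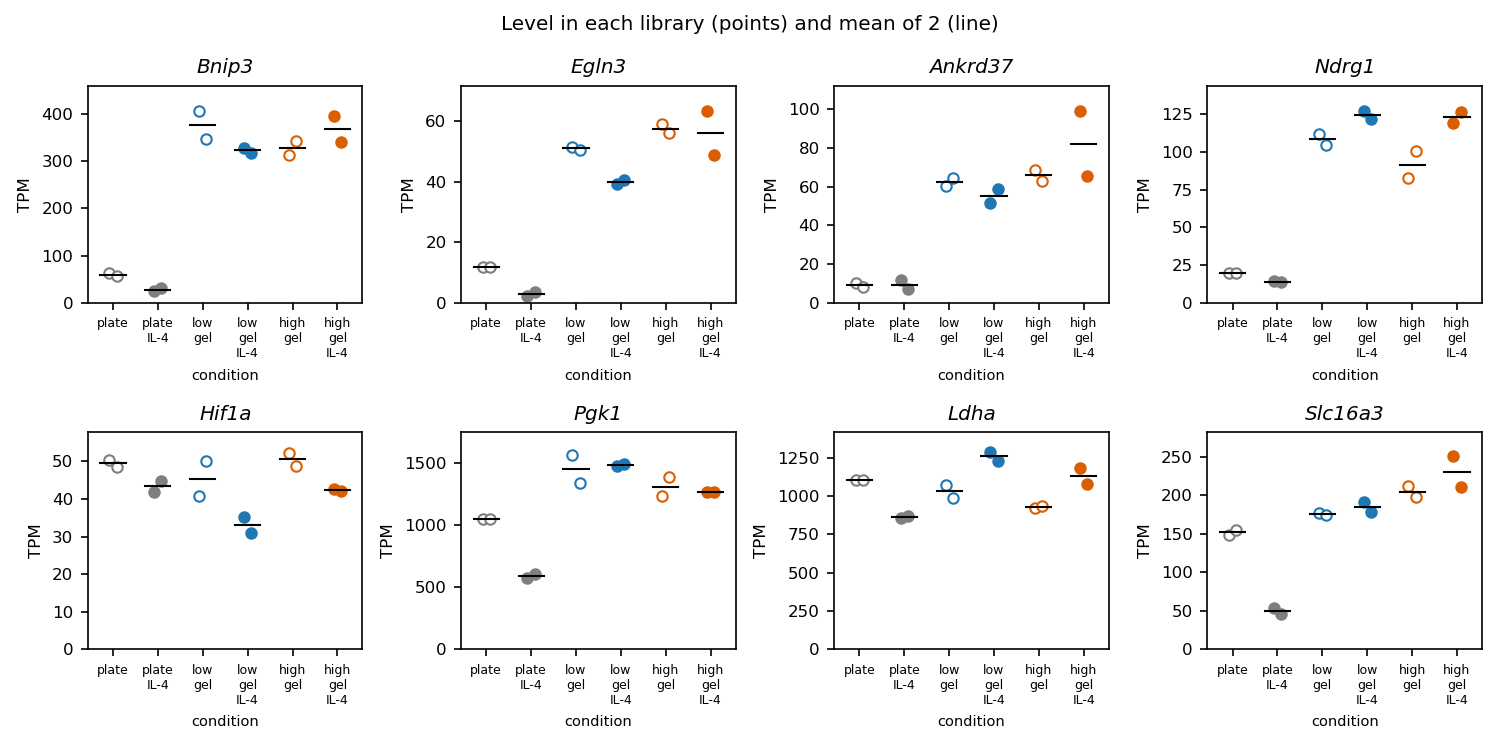
Level in TPM (y axis, from 0) of 8 genes in each library (points, open for untreated and filled for IL-4) with the mean of 2 libraries (line), by condition. Bnip3, Egln3, Ankrd37 and Ndrg1 separate all gel libraries from all plate libraries, whereas Hif1a spans 30.9 to 52.4 TPM with no such split and Slc16a3 is lowest on plates with IL-4.

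Among the other HIF targets, Ddit4, which encodes an inhibitor of mTORC1 signalling, was at 6.08 and 7.24 TPM on untreated plates and at 19.9 and 18 TPM in untreated low-collagen gels (log2 difference 1.38, SE 0.14), and Mxi1, which encodes an antagonist of MYC, was at 10.1 and 9.08 TPM and at 24.7 and 26.3 TPM (1.32, SE 0.0892). Both were called higher in all 4 comparisons of gel and plate. P4ha1, a subunit of the enzyme that hydroxylates prolines of collagen, was also higher in all 4 (0.21, 0.40, 0.45 and 0.83), and the histone demethylase gene Kdm3a in 2 of them (0.42 in low-collagen gels without IL-4 and 0.59 in high-collagen gels with it). After rescaling, Kdm3a was also called in the other 2, where its difference went from 0.20 to 0.38 (high collagen without IL-4) and from 0.16 to 0.47 (low collagen with IL-4). P4ha2 and Higd1a did not follow them without IL-4. P4ha2 differed by -0.25 (called lower, low collagen) and -0.08 (not called, high collagen) without IL-4 and by 0.34 and 0.68 with it, and after rescaling the first was no longer called and the second turned to 0.11. Higd1a, a mitochondrial survival factor, fell by 0.44 and 0.52 on the log2 scale without IL-4 and lay at -0.01 and 0.00 with it, where leaving out single libraries turned its sign and rescaling gave a called rise (0.30 and 0.25). Adm, which encodes the vasodilator adrenomedullin, was at 0.132 to 0.392 TPM on plates and at 0.290 to 2.44 TPM in gels, too low for a reading.

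The transcript of Hif1a (chromosome 12, 73901375 to 73947530, plus strand, protein coding), the oxygen-regulated subunit of the factor, did not follow its targets. It was at 50.4 and 48.6 TPM on untreated plates, 40.7 and 50.2 TPM in untreated low-collagen gels and 52.4 and 48.8 TPM in untreated high-collagen gels. With IL-4 it was at 41.9 and 44.9, 35.1 and 30.9, and 42.8 and 42.2 TPM. The untreated groups overlapped and the log2 differences were -0.13 (SE 0.104; limma adjusted p = 0.321) and 0.03 (0.816), so no difference was detected beyond the spread. With IL-4 only the low-collagen gels were called lower (-0.39, adjusted p = 0.0089 by limma), and not after rescaling (-0.08). In high-collagen gels the value moved from 0.03 to 0.22 without IL-4, where it was then called, and from -0.03 to 0.21 with it, so the direction of Hif1a depended on the scaling.

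Among the glycolytic enzymes, the largest rises without IL-4 were at the steps from Gpi1 to aldolase. Gpi1, which interconverts glucose and fructose phosphates, was at 590 and 585 TPM on untreated plates and at 1367 and 1190 TPM in untreated low-collagen gels and 1298 and 1435 TPM in high-collagen gels. Its log2 difference was 1.12 (SE 0.0677) and 1.21 without IL-4 and 1.45 and 1.66 with it (limma adjusted p at most 7.25e-07), with no overlap. Pfkl, the liver form of phosphofructokinase, rose by 0.92 and 0.76 without IL-4 and by 1.39 and 1.29 with it, and Pfkm by 0.81, 1.21, 0.63 and 1.19. Aldoc, a form of aldolase, was at 36.1 and 42.5 TPM on untreated plates and 91.0 and 78.7 TPM in untreated low-collagen gels. With IL-4 it was at 8.00 and 9.32 TPM on plates and 54.9 and 53.8 TPM in low-collagen gels, and its differences were 1.09 (SE 0.103), 0.95, 2.52 and 2.82. The more abundant Aldoa rose by 0.51 and 0.65 without IL-4 and by 1.06 and 1.14 with it.

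Other enzymes were lower in gels or moved little. Pfkp, the platelet form of phosphofructokinase, was at 160 and 161 TPM on untreated plates, 77 and 73.2 TPM in untreated low-collagen gels and 65.7 and 75.4 TPM in untreated high-collagen gels, with log2 differences of -1.09 and -1.18 (SE 0.0788; limma adjusted p = 2.15e-06 and 1.19e-06). Hk1 fell by 0.77 and 0.66 and Hk3, the hexokinase most abundant here, fell by 0.56 and 0.89. Pkm, which makes pyruvate, was at 2195 and 2250 TPM on untreated plates and at 1505 and 1345 TPM in untreated low-collagen gels (-0.64, SE 0.0547). None of these groups overlapped. With IL-4, Pfkp differed by -0.22 and -0.26, and both calls were lost after rescaling (0.10 and -0.02). Hk3 differed by -0.38 and -0.77 with IL-4, and the first was no longer called after rescaling (-0.06). Hk1 lay at -0.16 in high-collagen gels with IL-4 and at 0.09 after rescaling, and its call was lost without the first plate library (-0.14) or the second high-collagen library (-0.13) with IL-4.

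Pgk1 and Ldha are classic HIF targets among the enzymes, and their promoters printed above hold the HIF core letters as those of Bnip3 and Ankrd37 do. Pgk1 was at 1051 and 1048 TPM on untreated plates, 1570 and 1338 TPM in untreated low-collagen gels and 1238 and 1389 TPM in untreated high-collagen gels, with no overlap and log2 differences of 0.47 (SE 0.077) and 0.32. Ldha, which makes lactate, was at 1101 and 1105 TPM on untreated plates, 1069 and 988 TPM in low-collagen gels and 918 and 931 TPM in high-collagen gels. So Ldha lay lower in both gels, by -0.10 (SE 0.0573; limma adjusted p = 0.152) and -0.25 (0.00333), a direction that turned to 0.07 in low-collagen gels after rescaling and left -0.06 in high-collagen gels. The call in low-collagen gels was also lost without either untreated plate library (-0.10 each) or without the second low-collagen library (-0.05). With IL-4, where the plate level of both was lower, Pgk1 differed by 1.33 and 1.10 and Ldha by 0.54 and 0.38. The transcripts of Pgk1 shared 54.7% of their 31-base words with Pgk1-rs7, which had a mean of 6.56 TPM.

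Without IL-4, Gapdh differed mainly in low-collagen gels and Eno1 mainly in high-collagen gels, in opposite directions. Gapdh was at 2516 and 2483 TPM on untreated plates and at 3453 and 2982 TPM in untreated low-collagen gels (0.36, SE 0.0709), but at 2554 and 2560 TPM in high-collagen gels (0.03, limma adjusted p = 0.712; 0.23 and called after rescaling). It shared 26.5% of its words with its copy Gm7336, which had a mean of 1230 TPM, so that reads may be divided between them. The sum of both was 3690 and 3683 TPM on untreated plates and 4854 and 4234 TPM in untreated low-collagen gels. Eno1 differed by -0.03 with low collagen and by -0.26 with high collagen, and these became 0.14 and -0.06 after rescaling. With IL-4 both genes were higher in gels (Gapdh 0.96 and 0.72, Eno1 0.58 and 0.24).

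In the group of transport and flux, Slc16a3 encodes the lactate exporter MCT4. It was at 148 and 155 TPM on untreated plates, 177 and 175 TPM in untreated low-collagen gels and 212 and 197 TPM in untreated high-collagen gels (0.21, SE 0.0936, and 0.43), and the call in low-collagen gels was lost without the first untreated plate library (0.18). With IL-4 it was at 53.6 and 46.4 TPM on plates and at 192 and 179 TPM in low-collagen gels and 250 and 211 TPM in high-collagen gels, a log2 difference of 1.87 and 2.18 with no overlap. Slc2a1, the glucose transporter GLUT1, was at 71.9 and 78.0 TPM on untreated plates and at 55.2 to 63.8 TPM in the 4 untreated gel libraries (-0.30 and -0.34, SE 0.128). These were no longer called after rescaling (-0.13 and -0.15), without the second untreated plate library (low collagen, -0.25), without the first untreated low-collagen library (-0.23) or without the second untreated high-collagen library (-0.25). With IL-4 its direction was the opposite (0.34 and 0.59). With IL-4 in low-collagen gels, Pfkfb3 differed by -0.45 and was no longer called after rescaling (-0.16). Pdk1, which encodes a kinase that holds pyruvate out of the mitochondrial oxidation pathway, rose by 0.44 and 0.27 without IL-4 and by 0.98 and 1.04 with it, and the call at 0.27 was lost without the first untreated plate library (0.22) or the second untreated high-collagen library (0.23).

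Both members that act in glycogen synthesis rose in all 4 comparisons. Gys1 (chromosome 7, 45434844 to 45456619, plus strand, protein coding), the glycogen synthase of most tissues other than liver, was at 15.2 and 15.6 TPM on untreated plates, 63.6 and 58.0 TPM in untreated low-collagen gels and 52.9 and 52.6 TPM in untreated high-collagen gels. With IL-4 it was at 11 and 12 TPM on plates and at 52.8 to 61.5 TPM in the 4 gel libraries. No gel group overlapped a plate group, and the log2 differences were 1.91 (SE 0.089), 1.71, 2.22 and 2.17 (limma adjusted p at most 2.54e-07). Gbe1, the branching enzyme, rose by 0.45, 0.45, 0.84 and 1.09.

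On plates, most of the 37 genes were lower with IL-4. At the threshold, 29 fell, 3 rose and 4 were not called, beside 38.8% of all genes called (14.7% higher and 24% lower). Of the enzymes, 13 of 16 fell (median -0.48), of the HIF targets outside glucose metabolism 10 of 12 tested fell (median -0.40) and over all genes the median was -0.06. Aldoc fell most, from 36.1 and 42.5 TPM to 8.00 and 9.32 TPM (-2.06, SE 0.103; limma adjusted p = 7.03e-07). Egln3 went from 11.9 and 11.8 TPM to 2.20 and 3.48 TPM (-1.77, SE 0.156; limma adjusted p = 3.06e-05) and Slc16a3 from 148 and 155 TPM to 53.6 and 46.4 TPM (-1.59, SE 0.0936; limma adjusted p = 1.96e-06). Groups did not overlap for any of these.

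Pdk1 followed with -1.08 and Bnip3 with -1.07 (limma adjusted p = 8.51e-05 and 0.000126). P4ha2 (-0.95), Tpi1 (-0.91), Pgk1 (-0.83), Gapdh (-0.47), Gys1 (-0.39) and Ldha (-0.35) also fell. The 3 that rose were Bnip3l, from 102 and 115 TPM to 152 and 154 TPM (0.50, SE 0.108; limma adjusted p = 0.00872), Pfkfb4, a form of the enzyme that makes and removes the activator of phosphofructokinase (0.40), and Hk3, from 219 and 225 TPM to 254 and 248 TPM (0.18). The call of Hk3 was lost without any 1 of the 4 libraries (0.16 without the first and 0.19 without the second library of either condition), and that of Pfkfb4 without the first library with IL-4 (0.38) or the second untreated library (0.26). Ankrd37, at 10.3 and 8.40 against 11.7 and 7.27 TPM, showed no difference beyond its spread (-0.01, limma adjusted p = 0.985; 0.04 after rescaling).

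In gels, IL-4 gave a mixed response of smaller size. In low-collagen gels 11 members were higher and 13 lower, beside 53.6% of all genes called (13.2% higher and 40.4% lower), and in high-collagen gels 9 were higher and 7 lower, beside 34.3% called (11.5% and 22.8%). The median of all genes was -0.19 and -0.10. Rescaled to a median near 0, the splits were 18 higher and 9 lower (beside 23.2% and 21.2% of all genes) and 15 higher and 4 lower (beside 17.4% and 14.3%). The enzymes gave 8 higher and 3 lower in low-collagen gels and 6 higher and 3 lower in high-collagen gels (12 and 3, and 7 and 2, after rescaling). For the HIF targets outside glucose metabolism the split was 2 higher and 6 lower in low-collagen gels and 2 higher and 1 lower in high-collagen gels, which became 3 and 3, and 6 and 1, after rescaling. The count of 16 members called in high-collagen gels fell to 10 without the first library with IL-4.

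Pfkp rose in both gels, from 77 and 73.2 TPM to 128 and 127 TPM in low-collagen gels (0.75, SE 0.087; limma adjusted p = 0.000624) and from 65.7 and 75.4 TPM to 117 and 129 TPM in high-collagen gels (0.80; limma adjusted p = 0.000746). Hk3 rose by 0.36 and 0.29, Ldha by 0.29 and 0.29 and Pgam1 by 0.30 and 0.28. The largest falls were those of Ddit4, from 19.9 and 18 TPM to 8.88 and 6.72 TPM in low-collagen gels (-1.19, SE 0.14) and from 19.1 and 19.2 TPM to 11.1 and 10.2 TPM in high-collagen gels (-0.80), and of Pfkfb3, which makes the activator of phosphofructokinase, from 25.1 and 31 TPM to 12.4 and 12.5 TPM (-1.11, SE 0.139) and from 24.8 and 22.2 TPM to 17.4 and 14.3 TPM (-0.55). Neither gene's groups overlapped in either gel. Aldoc fell by 0.63 and Pfkfb4 rose by 0.56 in low-collagen gels. Pfkl and Pfkm fell too, by 0.42 and 0.58 with low collagen and by 0.36 and 0.42 with high collagen. In high-collagen gels, the call of Hk3 was lost without the second library with IL-4 (0.20) or the first untreated library (0.24), and that of Pfkm without the first library with IL-4 (-0.37) or the second untreated library (-0.31).

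For the members with the largest differences between gel and plate, IL-4 gave small differences within gels. Bnip3 differed by -0.22 with low collagen (limma adjusted p = 0.135) and by 0.16 with high collagen (0.309). The fall shrank to -0.01 after rescaling, and its call was lost without the first untreated library (-0.10) or without the first or second library with IL-4 (-0.24 and -0.19). Egln3 differed by -0.35 (limma adjusted p = 0.0594; -0.15 and not called after rescaling) and -0.05 (0.818; 0.06 after rescaling), and Ankrd37 by -0.18 (0.468; 0.02 after rescaling) and 0.29 (0.304). Ndrg1 was higher with IL-4 in high-collagen gels, at 82.8 and 100 against 119 and 127 TPM (0.43, SE 0.098; limma adjusted p = 0.0228). Slc2a1 rose there from 62.8 and 55.2 to 95.6 and 71.3 TPM (0.48, limma adjusted p = 0.0538), but its call was lost without the first library with IL-4 (0.27) or the second untreated library (0.39). Hif1a went from 40.7 and 50.2 to 35.1 and 30.9 TPM in low-collagen gels (-0.45, SE 0.115; limma adjusted p = 0.0227). In high-collagen gels it differed by -0.25 (limma adjusted p = 0.196), a call that was lost after rescaling (-0.14) and without any 1 of the 4 libraries (-0.30 to -0.20).

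**Figure D4:**
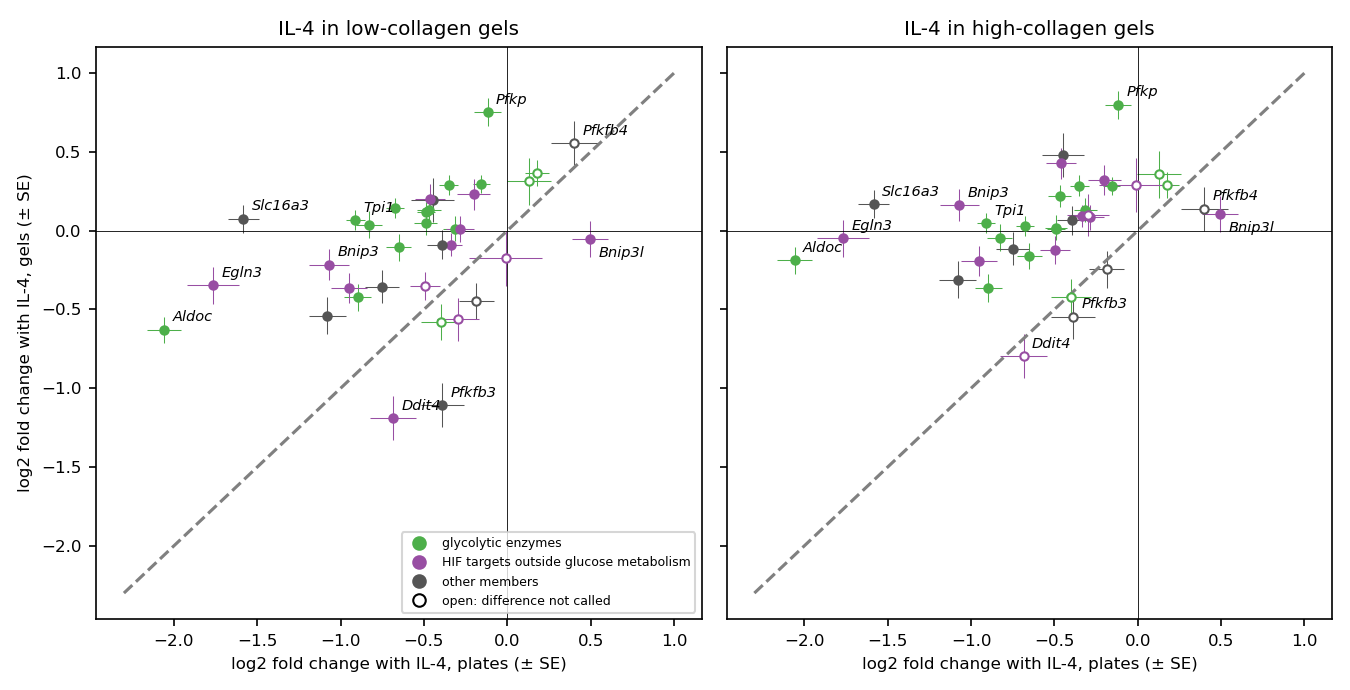
IL-4 response of each gene on plates (x axis, log2 fold change ± SE) against that in low-collagen gels (left) and in high-collagen gels (right), with a dashed line of equal response and open points where the difference between responses was not called. Slc16a3, Egln3, Bnip3 and Tpi1 lie far above the line, having fallen on plates and differed by -0.35 to 0.17 in gels.

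Whether members responded differently to IL-4 in gels and on plates was tested directly, as the response in gels minus that on plates. Relative to plates, 25 of 36 members were higher and 3 lower in low-collagen gels (beside 28% of all genes called, 9.3% higher and 18.7% lower), and 26 were higher and 1 lower in high-collagen gels (beside 17.3% called, 8.66% higher and 8.61% lower). Both used the same plate libraries. Enzymes accounted for 13 of 16 in each gel (medians 0.57 and 0.52) and HIF targets outside glucose metabolism for 7 higher and 2 lower, and 8 higher and 1 lower, of 12 (medians 0.27 and 0.41). The largest differences in both gels were those of Slc16a3 (1.66, SE 0.132, and 1.75; limma adjusted p = 0.000135 and 0.000117), Aldoc (1.43, SE 0.146, and 1.87) and Egln3 (1.42, SE 0.221, and 1.72). Bnip3 differed by 0.85 and 1.23, Tpi1 by 0.98 (SE 0.0779) and 0.96, and Pfkp by 0.87 and 0.92. Pgk1 in low-collagen gels (0.87) and Slc2a1 in high-collagen gels (0.93) stood next to them. Bnip3l was the member that lay lower in both gels (-0.55 and -0.39), having risen on plates and not having been called with IL-4 in either gel.

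Without IL-4, the members called between the collagen densities before rescaling were all glycolytic enzymes (31.25% of the 16 enzymes). In high-collagen against low-collagen gels, 1 was higher and 4 lower, beside 8.02% of all genes called (3.23% higher and 4.79% lower), and 2 were higher and 1 lower after rescaling. Pfkm was at 26.9 and 31.6 against 22 and 21.8 TPM (0.40, SE 0.115; limma adjusted p = 0.161), and Gapdh at 2554 and 2560 against 3453 and 2982 TPM (-0.33, limma adjusted p = 0.0873). Hk3 (-0.32), Tpi1 (-0.23) and Eno1 (-0.22) were the others, and the groups of these 5 genes did not overlap. Among the HIF targets outside glucose metabolism none of 13 was called by limma, and after rescaling 1 was called (P4ha1, from 0.19 to 0.21). An unadjusted limma p under 0.05 was reached by 2 of the 13, near the share over all genes (1862 of 11852). The number of members called fell from 5 to 0 without the first high-collagen library, to 1 without the second, and to 2 without either low-collagen library.

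With IL-4, 12 members were higher and 5 lower in high-collagen gels, beside 21.1% of all genes called (14.1% higher and 6.99% lower), and 9 higher and 7 lower after rescaling. Of the 13 HIF targets outside glucose metabolism, 7 were higher and none lower (median 0.33, against 0.06 over all genes), as also after rescaling (median 0.26). These were Ankrd37 (0.54), Egln3 (0.47), Kdm3a (0.43), Ddit4 (0.41), P4ha1 (0.37), P4ha2 (0.34) and Mxi1 (0.33). Egln3 was at 39.1 and 40.6 TPM with low collagen and 63.2 and 48.7 TPM with high collagen (SE 0.118; limma adjusted p = 0.067), and P4ha1 at 99.3 and 89.0 against 121 and 123 TPM (SE 0.0723; limma adjusted p = 0.0333). Neither pair of groups overlapped. Of the enzymes 3 were higher and 5 lower (1 and 6 after rescaling), among them Hk3 (-0.40), Eno1 (-0.34) and Tpi1 (-0.25) below and Pfkm (0.55) above. The count of 17 members called fell to 8 and 7 without the first and second high-collagen library with IL-4, and to 10 and 4 without the first and second low-collagen library with IL-4. P4ha1, Hk3 and Eno1 kept their calls in each of these 4 fits, whereas Egln3 lost its call without either low-collagen library (0.44 and 0.49) and Ankrd37 without either of these (0.45 and 0.63) or the first high-collagen library (0.25). Without the second low-collagen library, P4ha1 was the 1 HIF target of the 7 still called, and Ddit4 (0.23), Kdm3a (0.32), Mxi1 (0.29) and P4ha2 (0.31) lost their calls as well. Without the second high-collagen library Ddit4 (0.47), Kdm3a (0.29), Mxi1 (0.35) and P4ha2 (0.23) lost theirs, and without the first Ddit4 (0.35) and Mxi1 (0.31). With no filter on low values, Ankrd37, Ddit4 and Kdm3a were not called.

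The IL-4 response itself did not differ detectably between the collagen densities. None of the 37 members was called by limma, beside 0.363% of all genes. An unadjusted limma p under 0.05 was reached by 4 of the 37, near the share over all genes (1171 of 11852). These 4 were Aldoc (0.44), Pfkfb3 (0.56), Bnip3 (0.38) and Kdm3a (0.66), all with an adjusted p of at least 0.36.

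**Figure D5:**
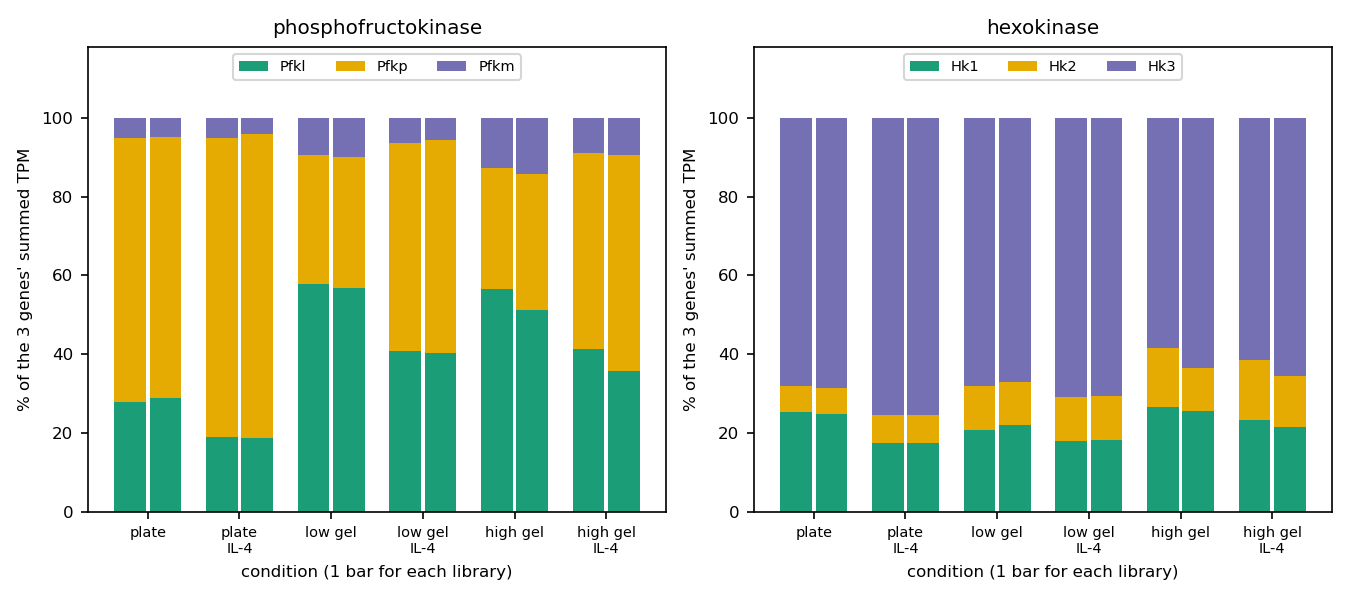
Share of each isozyme (y axis, percent of the summed TPM of its family) for phosphofructokinase (left) and hexokinase (right), with 1 bar for each library. Pfkl is the largest part of phosphofructokinase in untreated gels, at 57.3% and 53.9%, and Pfkp in the other conditions.

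Because TPM are corrected for length, isozymes of a step can be set beside each other. On untreated plates Pfkp made up 66.6% ± 0.607 (SD, n = 2) of phosphofructokinase TPM and Pfkl 28.4% ± 0.724. In untreated gels Pfkl was the larger part, at 57.3% ± 0.735 (low collagen) and 53.9% ± 3.76 (high collagen), and Pfkp made up 33.1% ± 0.344 and 32.6% ± 2.52. IL-4 moved the balance toward Pfkp in each substrate, with Pfkp at 76.6% ± 0.948 on plates, 53.4% ± 0.828 with low collagen and 52.4% ± 3.49 with high collagen. In no pair of these conditions that differ by IL-4 alone, or by plate and gel alone, did the shares of Pfkp or Pfkl in single libraries overlap. The small share of Pfkm did overlap between plates without and with IL-4. Hk3 stayed the main hexokinase, at 61.0% to 75.5% of the 3 genes, and Hk2, the inducible form, was 6.66% ± 0.101 on untreated plates and 11% ± 0.127 and 13% ± 2.86 in untreated gels. Hk2 itself was at 21.7 and 21.6 TPM on untreated plates and at 24.6 and 24.2 TPM in untreated low-collagen gels. In untreated high-collagen gels it was at 29.8 and 21.4 TPM, overlapping plates, while Hk1 and Hk3 were lower in both gels. Of the summed TPM of Pfkfb1 to Pfkfb4, the forms of the enzyme that makes and removes the activator of phosphofructokinase, Pfkfb4 took 37.6% ± 3.55 and Pfkfb3 32.2% ± 1.48 on untreated plates. With IL-4 in low-collagen gels Pfkfb4 took 71.4% ± 1.68 and Pfkfb3 14.6% ± 1.42.

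Other genes of these pathways were read from lists chosen by function. Of 11 tested genes of the oxygen pathway that were no members, 6 rose and 3 fell in either gel without IL-4, 4 rose and 3 fell in low-collagen gels plus IL-4, and 5 rose and 4 fell in high-collagen gels plus IL-4. Over all genes, 22.8% to 28.5% were higher and 44.3% to 52.2% lower in these 4 comparisons, and the lists that follow are to be read against these shares. Vegfa, the angiogenic factor and a HIF target, was at 57.7 and 67.0 TPM on untreated plates and at 548 and 624 TPM in untreated low-collagen gels (3.21), and Ero1l, which oxidises proteins in the endoplasmic reticulum, at 39.6 and 39.4 against 114 and 129 TPM (1.59). With IL-4, Vegfa was lower in each substrate, at 27.2 and 32.9 TPM on plates and 222 and 199 TPM in low-collagen gels. In high-collagen gels Vegfa went from 609 and 577 to 289 and 340 TPM with IL-4. Ero1l was higher with IL-4 in both gels, at 166 and 165 TPM (low collagen) and 251 and 248 TPM (high collagen). Epas1, which encodes HIF-2 alpha, was at most 9.61 TPM and was lower in all 4 comparisons of gel and plate. Car9 and Bhlhe40 of the same list also lay lower in untreated low-collagen gels than on untreated plates. Car9 was at 13.2 and 11.4 TPM on plates against 9.20 and 9.97 TPM, and Bhlhe40 at 24.9 and 29.9 against 17.3 and 20.2 TPM. The pentose phosphate pathway, which branches off at glucose 6-phosphate, had 6 of 7 genes lower without IL-4 in each gel, and 6 and 5 lower with it, and 1 higher each time, which is the direction of most genes called. Of its members, Tkt (transketolase) fell from 288 and 328 TPM to 151 and 144 TPM in untreated low-collagen gels (-1.05). Among 11 genes of pyruvate entry into mitochondria, 3 were higher and 7 lower in each comparison of gel and plate, near the split over all genes. Of 6 further genes of glycogen, 3 were higher in each comparison. Without IL-4, 2 (low collagen) and 1 (high collagen) were lower, and with it 3 and 0. Pygl, for glycogen breakdown, was at 51.0 and 46.2 TPM on untreated plates and at 143 and 132 TPM in untreated low-collagen gels. Ugp2 was at 115 and 107 against 95.2 and 97.6 TPM. Txnip, a glucose-induced gene that limits glucose uptake and 1 of 4 genes of glucose sensing, 3 of which rose, went from 240 and 242 TPM to 1472 and 1367 TPM (2.55).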

How the data were processed

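RNA-seq was analysed in 12 libraries of BMDMs, 2 for each of 6 conditions taken from the sample labels. The authors extracted RNA with RNA-Bee, prepared stranded libraries for paired-end sequencing and ran kallisto 0.46.1 on the GRCm38 transcriptome of Ensembl. They deposited TPM values per gene, and how transcripts were joined into genes was not given in the sources used here. TPM keep no depth, so no count test and no counting interval was used. A kallisto value divides reads among similar transcripts, and the shared 31-base words of each member were counted in the reference transcripts.

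The table held 34456 lines, of which 129 repeats were collapsed. Values were taken as log2(TPM + 1), and genes with a mean of at least 1 TPM were tested with limma 3.58.1 in R 4.3.3, with 1 mean for each condition, variances moderated along the mean and adjustment over all genes by Benjamini-Hochberg, and called at an adjusted p under 0.2. The 8 gel libraries entered 1 fit (11852 genes) for comparisons within gels, and all 12 another (11865 genes) for plates and for gels against plates. With 2 libraries against 2, an exact permutation test of a single gene cannot reach this threshold, so only the fit across genes was used. The fit was tested on simulated data with 200 genes changed 2-fold or 4-fold, of which 94% to 98% were called. Of the calls, 20.5% were false in the setting of IL-4 on plates and 15.0% in that of collagen with IL-4. Smaller changes, or changes in more genes, were not simulated. Genes named were the called members with the 3 largest rises and falls in a comparison, at a mean of at least 5 TPM and without overlap (at most 6 for differences of responses), and genes that stand for a role. The members and lists were chosen with earlier results of these data known. Alternatives were a pseudocount of 0.1, no filter, median-ratio rescaling, an adjusted p under 0.05, the replicate number as a block, all 12 libraries in the fit and each library left out. Other steps ran in Python 3.11.15 with matplotlib 3.10.9, numpy 2.4.6 and pandas 2.3.3.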

Additional observations from a re-analysis of the deposited data

Results flagged for a closer look

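The response to IL-4 differed between gels and plates for most members by a test of the difference itself (limma on all 12 libraries, adjusted p under 0.2). Values are the log2 response in gels minus that on plates. In low-collagen gels it was higher for Slc16a3 (1.66), Aldoc (1.43), Egln3 (1.42), Tpi1 (0.98), Pfkp (0.87), Pgk1 (0.87), Bnip3 (0.85), Pkm (0.82), Ndrg1 (0.66), Slc2a1 (0.64), Ldha (0.64), Eno1 (0.61), Gapdh (0.60), P4ha2 (0.59), Aldoa (0.55), Hk1 (0.54), Pdk1 (0.54), Pfkl (0.47), Pgam1 (0.45), Higd1a (0.43), Gbe1 (0.39), Gpi1 (0.33), Gys1 (0.30), Egln1 (0.30) and P4ha1 (0.25). It was lower there for Pfkfb3 (-0.72), Bnip3l (-0.55) and Ddit4 (-0.50).

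In high-collagen gels it was higher for Aldoc (1.87), Slc16a3 (1.75), Egln3 (1.72), Bnip3 (1.23), Tpi1 (0.96), Slc2a1 (0.93), Pfkp (0.92), Ndrg1 (0.89), Pgk1 (0.78), Pdk1 (0.77), P4ha2 (0.76), Pkm (0.70), Gapdh (0.69), Ldha (0.64), Gbe1 (0.64), Pfkl (0.53), Higd1a (0.52), Hk1 (0.51), Eno1 (0.50), Aldoa (0.49), Gys1 (0.46), Gpi1 (0.44), Pgam1 (0.44), P4ha1 (0.43), Mxi1 (0.37) and Egln1 (0.37), and lower for Bnip3l (-0.39). Both sets of differences use the same plate libraries.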

How the results depend on the processing

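The results rest on 2 libraries for each condition and on TPM, so depth sets no error here. Without IL-4, 5 members were called between collagen densities, against 0 with no filter, 3 after rescaling, 3 with the replicate block and 0 at an adjusted p under 0.05, and 0 to 2 with 1 library left out. With IL-4, 17 were called, against 10 with no filter and 4 at an adjusted p under 0.05, and 4 to 10 with 1 library left out. For IL-4 in high-collagen gels the 16 became 8 at an adjusted p under 0.05 and 10 to 15 with 1 library left out. For the response in low-collagen gels minus plates, 28 became 18 at an adjusted p under 0.05. The other 110 counts were within 1.5 times the reported one. With all 12 libraries in the fit, none of the counts moved by more. The replicate numbers do not pair the libraries (correlations of -0.123 to 0.109 over 15 pairs of conditions). The replicate block gave 31 members called for IL-4 on plates, 23 and 15 for IL-4 in gels and 15 for collagen with IL-4, and a crossed pairing, chosen after seeing the data, gave 32 and 24 for IL-4 on plates and in low-collagen gels.

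Signs of named members turned as follows. After rescaling, Ankrd37 with IL-4 became 0.042 on plates and 0.025 in low-collagen gels, and Egln3 in high-collagen gels 0.062. Against plates without IL-4, Eno1 (0.14), Hif1a (0.043) and Ldha (0.072) in low-collagen gels and P4ha2 (0.11) in high-collagen gels turned, and with IL-4 Higd1a (0.30) and Pfkp (0.10) in low-collagen gels and Hk1 (0.087) and Hif1a (0.21) in high-collagen gels. With 1 library left out, Ankrd37 with IL-4 ran from -0.32 to 0.30 on plates and from -0.0064 to 0.58 in high-collagen gels, and Egln3 from -0.23 to 0.14 in high-collagen gels. Against plates without IL-4, low-collagen gels gave -0.28 to 0.021 for Hif1a and -0.11 to 0.050 for Eno1, and high-collagen gels -0.018 to 0.080 for Hif1a. With IL-4, Higd1a ran from -0.15 to 0.13 (low collagen) and from -0.11 to 0.12 (high collagen), and Hif1a from -0.078 to 0.021 (high collagen). Of the cases rerun for named members, 1708 kept direction and call, 136 lost the call, 16 gained it and 23 turned sign, and the cause was not tested.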
